A study of Homo sapiens with 2 samples.

Results

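LMO2, DENND3, RGS3, FAM49A, SUSD3 and IER2 are 6 genes near which binding of the transcription factor TCF4 was listed in a human B-cell lymphoma line. They were taken by name from a table of peaks, the stretches of chromatin enriched in the TCF4 precipitate. Every row carrying one of these names was kept, which gave 24 of 662 peaks in 6 of 275 genes. The genes were selected on the position, width, reads and enrichment of their listed peaks, so all values below are a description and no test was made on them. All 6 genes are marked Down in the TCF4 signature of the table, as are 46 of the 275 genes, and the headers do not say what Down is relative to.

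Binding was measured by ChIP-seq, in which DNA pulled down with an antibody to the factor is sequenced. The cells were SU-DHL-2, a long-used line of the activated B-cell-like subtype of diffuse large B-cell lymphoma (DLBCL). The line has no copy number gain of TCF4 and carried an added tetracycline-inducible TCF4, which cannot be told apart here from TCF4 made by the cells' own gene. The TCF4 ChIP group is 1 library of cells given 60 ng/ml doxycycline for 24 hours, and the input group is 1 library of whole-cell extract from the same kind of induced cells, with no antibody. Uninduced cells were not analysed here. With 1 library in each group no difference has a replicate check, and intervals are at 95% and cover counting error only. The 24 peaks held 3521 ChIP reads and 525 input reads, and all 662 peaks held 72744 ChIP reads and 11733 input reads. The table lists no peak with a log2 ratio under 2.01, so weakly enriched sites near these genes would not be seen.

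TCF4, also called E2-2, is an E protein, a basic helix-loop-helix factor that binds as a dimer to the E-box, a short DNA motif written CANNTG, where N is any base. E proteins drive B-cell development and antibody gene expression, and they also serve as the partners that hold LMO2-containing complexes on DNA. LMO2 is a transcription cofactor that marks germinal-centre B cells, the antigen-selected cells in which antibody genes are mutated. RGS3 and FAM49A encode proteins that damp signals from G-protein-coupled receptors and from the small GTPase RAC1.

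The E-box can be looked for in the RefSeq promoter windows of build GRCh38.p14, which run from 250 bases before to 50 bases after an annotated start. They were given for 3 of the 6 genes, with 1 window each for SUSD3 and IER2 and 5 for RGS3. The 2 single windows are shown because they are start sites without a listed peak of their own, the nearest peak of each gene lying further away. E-boxes (CANNTG, which reads the same on both strands) are in capitals and all other bases in lower case, 5′ to 3′.
SUSD3, chr9:93058451-93058750, plus strand: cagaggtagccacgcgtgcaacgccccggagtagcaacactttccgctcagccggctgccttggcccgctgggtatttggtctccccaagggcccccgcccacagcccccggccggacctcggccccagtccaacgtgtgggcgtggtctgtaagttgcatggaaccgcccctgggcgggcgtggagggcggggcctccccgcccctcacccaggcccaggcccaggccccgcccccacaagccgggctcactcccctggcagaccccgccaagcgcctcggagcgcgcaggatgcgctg
IER2, chr19:13150161-13150460, plus strand: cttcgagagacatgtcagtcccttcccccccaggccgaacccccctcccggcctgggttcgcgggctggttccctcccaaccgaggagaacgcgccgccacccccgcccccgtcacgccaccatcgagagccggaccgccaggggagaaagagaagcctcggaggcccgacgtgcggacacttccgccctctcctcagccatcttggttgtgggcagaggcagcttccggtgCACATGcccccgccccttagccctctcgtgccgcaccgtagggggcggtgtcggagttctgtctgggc
The SUSD3 window holds no E-box, and the IER2 window holds 1. The 5 RGS3 windows hold 2, 1, 0, 3 and 0 in order along the chromosome. At least 1 is found in 68.7% of all 35116 windows, so holding one is common. The forms CAGGTG and CACCTG, which are reverse complements of each other and 2 of the sequences that CANNTG covers, occur in 20.6% of all windows and in 1 of the 5 of RGS3. No sequence of the hg19 build, on which the peaks are placed, was used here, so the bases under the peaks are not shown.

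Of the 24 peaks, 2 carried the authors' promoter mark, against 5.44% of all listed peaks. The mark covers peaks whose centre lies up to 1994.5 bp from the start site of the transcript to which the authors assigned the peak. In all, 10 of the 24 peaks, the promoter peaks included, lay within the assigned transcript, against 52.0% of all listed peaks. A further 7 lay upstream and 7 downstream, and 3, all of FAM49A, were over 100 kb from the start site, against 20.4% of all listed peaks. The median distance was 59.7 kb for the 24 peaks and 39.6 kb for the other 638.

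**Figure D1:**
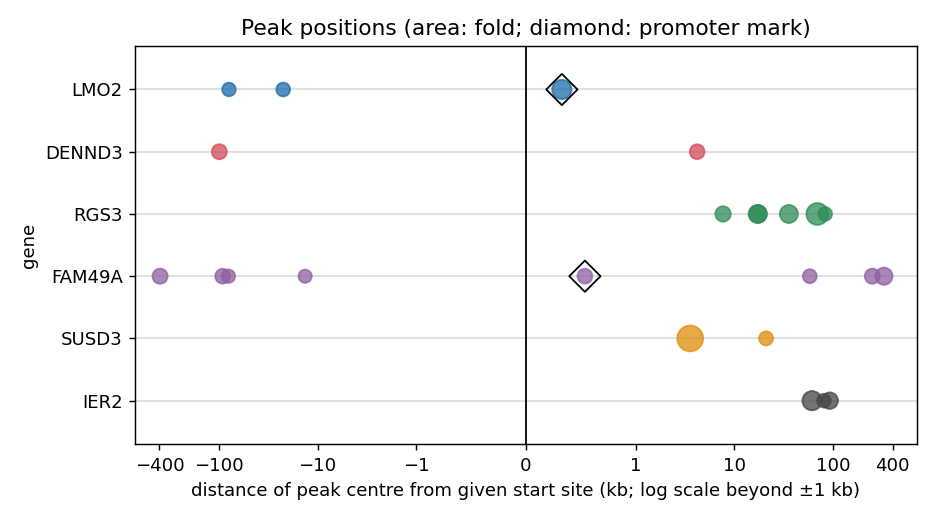
Distance of each peak centre from the start site of its assigned transcript (kb, upstream negative, log scale beyond 1 kb), 1 row per gene, with circle area in proportion to fold enrichment and a diamond around the peaks marked as promoter. LMO2 and FAM49A each have 1 promoter peak, the largest circle is the SUSD3 peak at 3.57 kb, and all IER2 peaks lie over 61 kb downstream.

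LMO2, a LIM-only protein that bridges basic helix-loop-helix dimers and GATA factors, had its strongest peak at the promoter and 2 weaker ones upstream. The promoter peak on chromosome 11 (33913212 to 33913805, hg19) held 252 ChIP reads and 28 input reads. The enrichment was 8.12-fold, the fold being ChIP over input reads after scaling by the deposited constant of each library, with an interval of 5.49 to 12.5. The peak began 31 bp inside the transcript and ended 624 bp inside it, so it lay just past the start site rather than across it. Its apex, the point of highest coverage, was 371 bp past the start.

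The upstream LMO2 peaks were narrower and held fewer reads. At 22.3 kb upstream (33935936 to 33936317) there were 65 ChIP and 14 input reads, 4.19-fold (2.33 to 8.09). At 78.9 kb upstream (33992549 to 33992971) there were 85 ChIP and 19 input reads, 4.04-fold (2.43 to 7.03). The promoter fold was thus 2.01 times that of the farthest peak, but the intervals of all 3 overlap. Read density differed more: per kb of peak the promoter held 425 ChIP reads, against 171 and 201 ChIP reads at the upstream peaks, while their input density was close, with 47.2 input reads per kb at the promoter and 36.7 and 45.02 upstream. The promoter held 62.7% of the gene's ChIP reads (57.8 to 67.4, exact binomial) and 45.9% of its input reads (33.1 to 59.2). In the RefSeq annotation of GRCh38.p14, used for gene order only, the next protein-coding gene on the upstream side of LMO2 is CAPRIN1. Transcription of LMO2 is known to begin at more than 1 promoter, and the distances here refer only to the start of the transcript that the table gives.

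DENND3, which activates the vesicle GTPase RAB12 and is used as a marker of germinal-centre-type DLBCL, had 2 peaks of nearly equal enrichment and no promoter peak. One lay 98.9 kb upstream on chromosome 8 (142039580 to 142040034) where 66 reads of the ChIP stood over 12 of the input, 4.96-fold (2.66 to 10.1). The other lay 4.2 kb into the transcript (142142685 to 142143132) with 90 ChIP and 17 input reads, 4.78-fold (2.82 to 8.56). Their folds differed by a factor of 1.04, far less than the width of either interval. Both were below the median fold of all listed peaks, 5.01. The transcript given is a short form of 14.4 kb, whereas the gene spans 67.2 kb in the RefSeq annotation of GRCh38.p14. Whether the short form starts where longer forms do was not examined, and the distances refer to its start only.

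RGS3, which speeds GTP hydrolysis on G-protein alpha subunits and so shortens receptor signals, had 6 peaks on chromosome 9 over 197 kb. None was marked as promoter, and 5 of the 6 reached 5-fold, against 50.3% of all listed peaks. The table assigns them to 4 transcripts with 3 start sites (116225979, 116327233 and 116356433), and 3 of the 4 transcripts end at the same base. RefSeq gives 5 promoter windows for RGS3 in GRCh38.p14, so the gene has start sites that the table does not use. Distances to those were not measured, and a peak far from its given start may lie near another. The most reads lay 17.2 kb into the middle transcript (116344116 to 116344787), where 272 ChIP and 34 input reads gave 7.22-fold (5.04 to 10.6). The highest fold was instead at a peak of 464 bp (116295048 to 116295512), where 116 ChIP reads stood over 10 input reads, 10.5-fold (5.49 to 22.4). That interval is wide because the input count is small, and it contains the fold of the peak with the most reads.

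Moving along the gene, the peak 17.4 kb past the first start site (116243118 to 116243612) held 91 ChIP and 12 input reads and was enriched 6.84-fold (3.73 to 13.7). The next, at 35.6 kb (116261393 to 116261855), held 158 ChIP and 20 input reads and was enriched 7.13-fold (4.46 to 12). These 2 and the 2 described above, the 4 peaks within a transcript, all reached at least 6.84-fold. Past the end that the 3 transcripts share, the folds were lower. The first of the 2 downstream peaks (116363547 to 116364683), 4.09 kb past the end, held 208 ChIP and 36 input reads over 1136 bp, 5.21-fold (3.65 to 7.65). The second (116439329 to 116439867), 79.6 kb past the end, held 87 ChIP and 19 input reads, 4.13-fold (2.49 to 7.19). Each of these intervals overlaps those of the 4 inner peaks, so the order is not separated beyond counting error. In the 1136 bp peak the apex lay 22.1% of the way along the width, off centre, whereas in the other RGS3 peaks it lay between 39.6% and 63.01%.

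**Figure D2:**
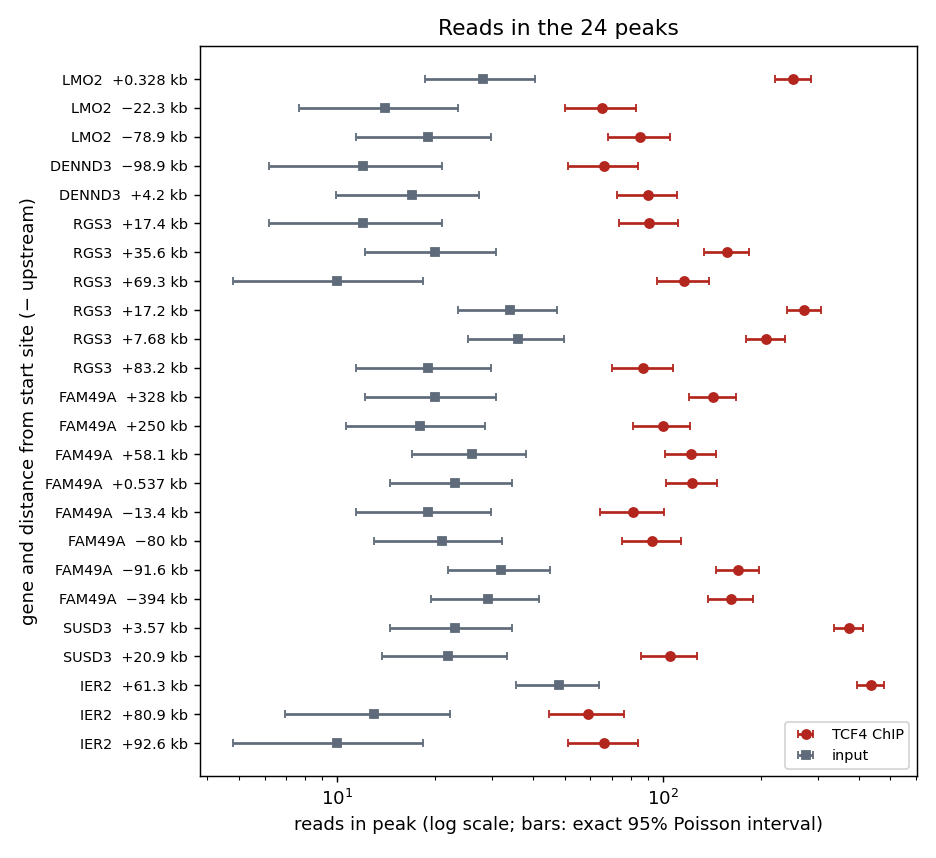
Reads of the TCF4 ChIP library (red circles) and of the input library (grey squares) in each of the 24 peaks (log scale), with exact Poisson intervals at 95%, labelled by gene and distance from the start site. ChIP reads run from 59 to 435 and input reads from 10 to 48, and in every peak the ChIP interval lies above the input interval.

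FAM49A, now named CYRIA, binds RAC1 and belongs to a family that restrains the actin-branching WAVE complex. It had 8 peaks, spread over 722 kb of chromosome 2. That number was the highest of the 46 genes marked Down and rank 5, with ties, among all 275 genes. The promoter peak (16846371 to 16846822) lay 537.5 bp into the transcript and held 123 ChIP and 23 input reads, 4.83-fold (3.07 to 7.9). Unlike that of LMO2 it was not the strongest of its gene: 3 other FAM49A peaks had a higher fold and 3 held more ChIP reads.

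The outermost FAM49A peaks were among the more enriched ones. The peak 328 kb from the start, 211 kb past the end of the gene (16519156 to 16519725), held 143 ChIP and 20 input reads, 6.45-fold (4.03 to 10.9). At the other end, 394 kb upstream (17240717 to 17241176), there were 162 ChIP and 29 input reads, 5.04-fold (3.38 to 7.77). A peak 250 kb from the start (16597124 to 16597549) held 100 ChIP and 18 input reads, 5.01-fold (3.02 to 8.8). These 3 of the 8 reached 5-fold, against 50.3% of all listed peaks. All of them lie outside the transcript, but 2 of them are close to that limit. With 1 read added to both counts the peak 328 kb from the start kept 6.19-fold, and the other two had 4.9-fold and 4.8-fold. Without scaling 5 of the 8 FAM49A peaks reached 5-fold, among them the peak at the promoter with 5.35-fold. Every listed fold is higher without scaling, and the share of all listed peaks was not computed for that setting. The most ChIP reads, 170 over 32 input reads, lay 91.6 kb upstream (16938465 to 16938923), 4.79-fold (3.27 to 7.23). The peak 58.1 kb into the transcript (16788820 to 16789179) held 122 ChIP and 26 input reads, 4.24-fold (2.76 to 6.74). The peaks 13.4 kb (16860290 to 16860685) and 80.05 kb (16926950 to 16927411) upstream had the lowest folds of the 24. They held 81 and 93 ChIP reads over 19 and 21 input reads, 3.85-fold (2.31 to 6.72) and 3.997-fold (2.47 to 6.76). All 8 intervals overlap. RAD51AP2 is the next protein-coding gene on the upstream side in the RefSeq annotation of GRCh38.p14.

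The FAM49A peaks were dense in both libraries. Summed over the 8 peaks there were 278 ChIP reads per kb (261 to 296), against 228 ChIP reads per kb (227 to 230) over the 638 peaks of other genes than these 6. Input density was 52.6 reads per kb (45.3 to 60.6) at FAM49A, against 36.9 reads per kb (36.3 to 37.6) at those 638 peaks. All 8 FAM49A peaks had an input signal above the median of the table, which 50.0% of all listed peaks have. The median deposited input signal was 0.587 at FAM49A, against 0.373 at the other 25 listed peaks of chromosome 2. The FAM49A peak with the most reads ranked 87 of 662 by ChIP reads and 383 by fold, and the part of the input level in this was not tested.

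SUSD3, which encodes a membrane protein with a sushi domain, the repeat typical of complement regulators, had 2 peaks. Its first peak on chromosome 9 (95824006 to 95825074) held 372 ChIP reads over only 23 input reads, which is 14.6-fold (9.58 to 23.3). It was the most enriched of the 24, stood 12th by fold among the 662 and was 1068 bp wide. The peak lay 3.04 to 4.1 kb past the start site, inside the transcript and outside the promoter window whose sequence is given above. The second peak, 20.9 kb past the start (95841565 to 95842264), held 105 ChIP and 22 input reads, 4.31-fold (2.7 to 7.17). The 2 peaks had almost the same input reads and their fold intervals do not overlap, the only gene of the 6 in which the highest and the lowest peak are separated in this way. The first peak held 78% of the ChIP reads of the gene (74 to 81.6) and 51.1% of the input reads (35.8 to 66.3). Input density over both was 25.5 reads per kb (18.6 to 34.1), below that of the 638 other peaks.

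IER2, an immediate early gene switched on within minutes of stimulation, had 3 peaks, all beyond the end of the gene. The nearest (13321844 to 13323240 on chromosome 19) lay 61.3 kb from the start and 56.8 kb past the end, held 435 ChIP and 48 input reads and was 1396 bp wide. It was enriched 8.18-fold (6.06 to 11.3) and held the sixth most ChIP reads of all listed peaks. The other IER2 peaks were at 80.9 kb (13341941 to 13342379), with 59 ChIP and 13 input reads, 4.1-fold (2.22 to 8.14), and at 92.6 kb (13353623 to 13354070), with 66 ChIP and 10 input reads, 5.96-fold (3.04 to 13). The nearest peak held 77.7% of the ChIP reads of the gene (74 to 81.1) and 67.6% of its input reads (55.5 to 78.2), and these intervals overlap. IER2 itself is short, its transcript spanning 4.44 kb, and the next protein-coding gene on the downstream side in the RefSeq annotation of GRCh38.p14 is CACNA1A, a calcium channel gene. The name IER2 is the authors' assignment, and whether these peaks lie inside another gene was not examined, since the annotation is of another build.

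**Figure D3:**
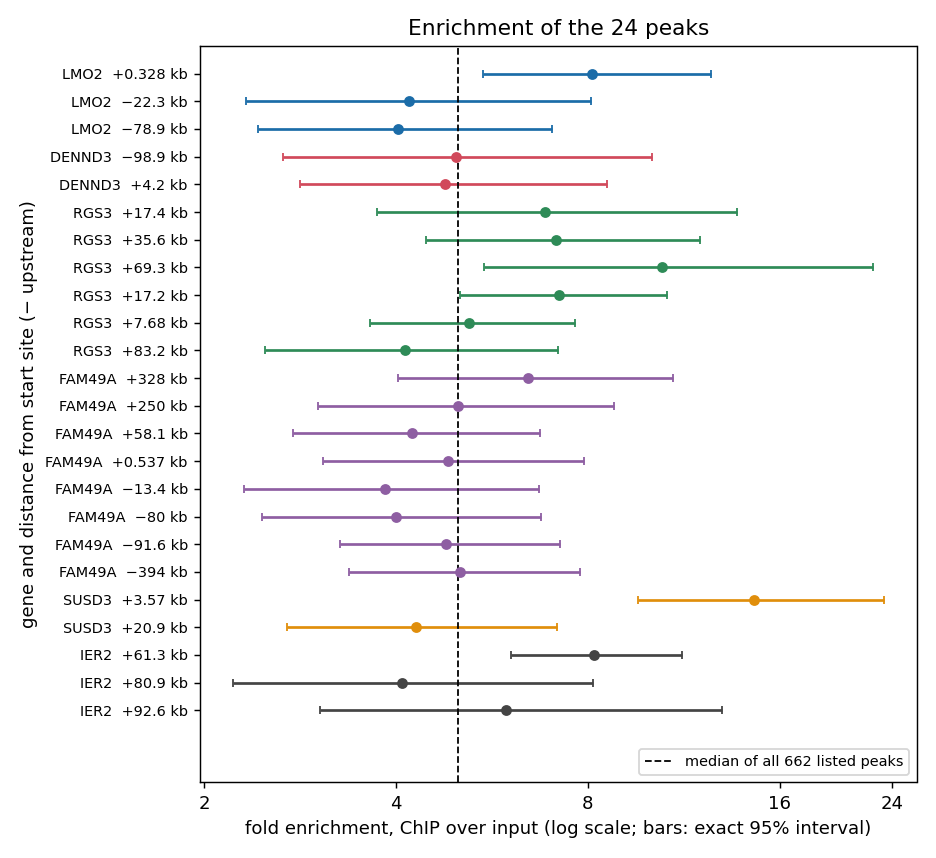
Fold enrichment of ChIP over input in each of the 24 peaks (log scale) with exact intervals at 95%, coloured by gene, and the median of all 662 listed peaks as a dashed line. The interval of the SUSD3 peak at 3.57 kb begins at 9.58, and most other intervals cross the dashed line at 5.01.

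Across the 24 peaks, 12 reached 5-fold, against 50.3% of all listed peaks, so by this count the genes were like the table as a whole. Their median fold was 4.99, against 5.01 for the 638 other peaks and 4.95 for the 92 peaks of the other 40 genes marked Down. Among all 116 peaks of Down genes 46.6% reached 5-fold. At 8-fold or more there were 4 of the 24, against 12.2% of all listed peaks, and at 4-fold or more 22, against 89.4%. Where the lower end of the interval is used, 5 peaks lay at 5 or more, against 8.16% of all listed peaks. These are the LMO2 promoter peak, the RGS3 peaks at 116295048 and 116344116, the first SUSD3 peak and the first IER2 peak. As the genes were picked with such values in view, the count is given without a reading.

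Summed over the peaks of each gene, the enrichment was 9.57-fold at SUSD3 (7.04 to 13.3), 7.12-fold at IER2 (5.55 to 9.25), 6.42-fold at RGS3 (5.34 to 7.77), 5.95-fold at LMO2 (4.53 to 7.92), 4.86-fold at DENND3 (3.25 to 7.49) and 4.77-fold at FAM49A (4.08 to 5.61). Each gene's interval overlaps that of the next in this order. The interval of SUSD3 lies above that of FAM49A. Over all 638 other peaks the summed fold was 5.57 (5.46 to 5.69). Without the peak with the most reads, SUSD3 fell to 4.31-fold, LMO2 to 4.1-fold and IER2 to 4.91-fold. In these 3 genes that peak also has the highest fold, so leaving it out had to lower the sum. For RGS3, DENND3 and FAM49A the sum without the peak with the most reads was 6.14-fold, 4.96-fold and 4.77-fold. There the peak with the highest fold is another one and was kept, so no difference between the genes is read from this.

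**Figure D4:**
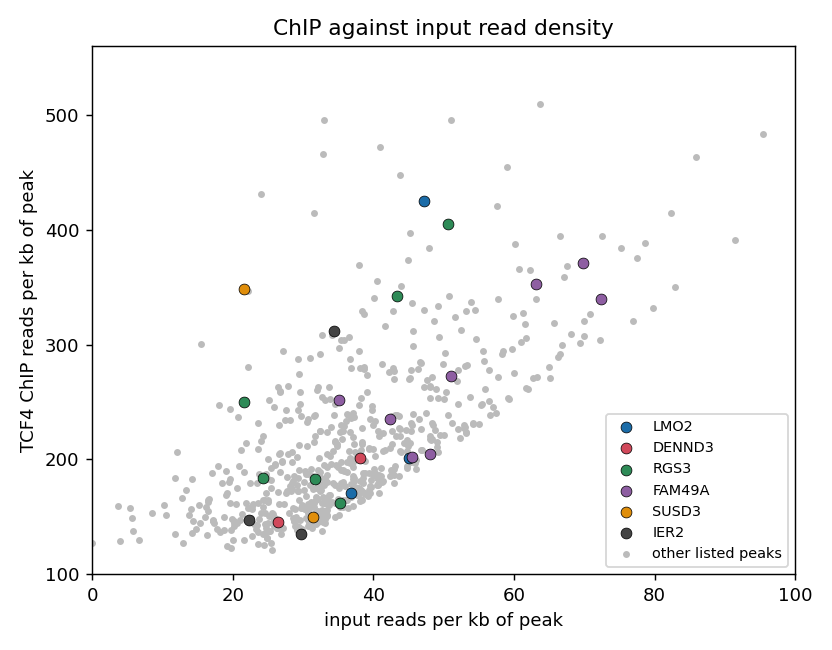
TCF4 ChIP reads per kb of peak against input reads per kb of peak for the 24 peaks, coloured by gene, and the other listed peaks in grey, 7 of which lie outside the axes. FAM49A peaks extend to the right, with up to 72.4 input reads per kb, whereas the first SUSD3 peak has 348 ChIP reads per kb at 21.5 input reads per kb.

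The median width was 460 bp for the 24 peaks and 421.5 bp for the other 638, and 3 of the 24 were 1000 bp or wider, against 2.72% of all listed peaks. These were the first IER2 peak (1396 bp, the fifth widest of the table), the RGS3 peak downstream of the gene (1136 bp) and the first SUSD3 peak (1068 bp). Per kb they differed: the SUSD3 peak held 348 ChIP reads per kb and the IER2 peak 312, but the RGS3 peak 183. The densest of the 24 was the LMO2 promoter peak, at 425 ChIP reads per kb over 593 bp. The narrowest was the FAM49A peak 58.1 kb into the transcript, 359 bp wide with 340 ChIP reads per kb.

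**Figure D5:**
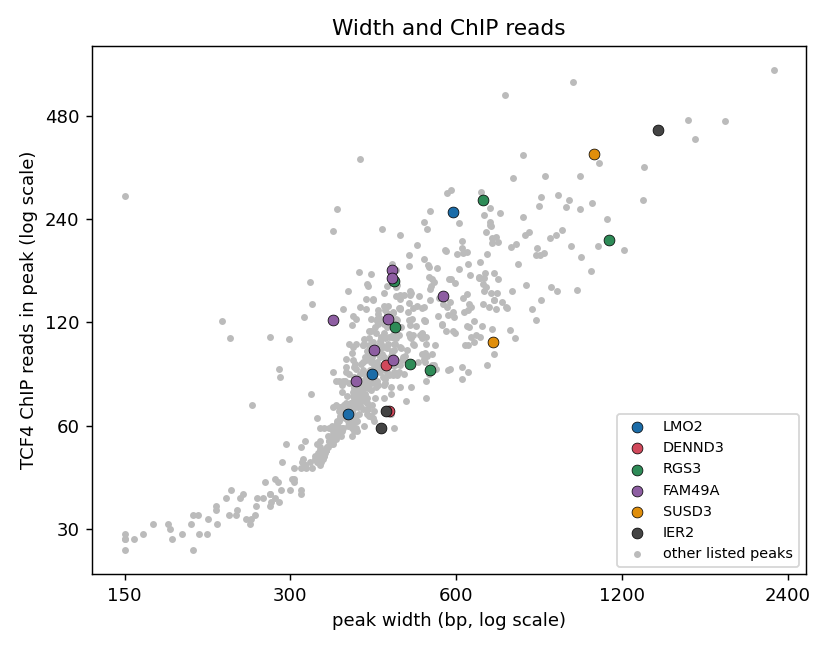
ChIP reads against peak width (bp), both on log scales, for the 24 peaks coloured by gene and for the other listed peaks in grey. Widths of the 24 run from 359 to 1396 bp and ChIP reads from 59 to 435, the widest peak being that of IER2 with the most reads of the 24.

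A further value is the authors' own −log10 p of each peak against its local surroundings. In the authors' deposited table it was above the median of 4.2 for 8 of the 24 peaks, against 46.1% of all listed peaks. Of these 8, 5 are FAM49A peaks, 2 RGS3 peaks and 1 the LMO2 promoter peak. The highest of the 24 in the authors' deposited table was 7.18 at the FAM49A peak 328 kb from the start (rank 17 of 662), followed by 6.7 at the LMO2 promoter (rank 28). In the authors' deposited table the first IER2 peak had 3.33 (rank 457) and the first SUSD3 peak 4.02 (rank 340).

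Genes related by function were looked up in the same table. A list drawn up here for the germinal centre and germinal-centre-type DLBCL held 22 genes, and being on it does not make a gene a marker. Of these 22, LMO2 and DENND3 had a listed peak. RGS3 was the single one of 20 RGS genes, DENND3 of 17 names of DENN-domain genes and their target, and FAM49A of 17 names of its own family and the WAVE complex. Among 19 genes of the LMO2 complexes and LMO paralogs, LMO2, TCF4 and RUNX1 were listed, and TCF4 (5 peaks, 3.75-fold to 6.54-fold) and RUNX1 (2 peaks, 4.96-fold and 5.01-fold) are marked Up while LMO2 is marked Down. Of 21 immediate early genes IER2 and MYC were listed, MYC being marked Up. Of 10 sushi-domain and complement-receptor genes 3 were listed, all marked Down: SUSD3, CR1 with 1 peak of 5.84-fold, and CD46 with 1 promoter peak of 4.93-fold. The mark Down is carried by 46 of all 275 listed genes. As SUSD3 is itself a chosen gene, no pattern is read from these 3. The table holds only signature genes with a peak, so an absent gene says nothing about binding.

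The gene whose strongest peak was most like each of the 6 was found among the 269 others by the distance over log2 ChIP reads, log2 width and scaled log2 ratio, each in SD of all listed peaks, within the same 2 libraries. For LMO2 it was NCAPG2 (distance 0.358), whose peak of 587 bp held 291 ChIP and 30 input reads. For SUSD3 it was NFATC1, at the greater distance of 0.924, with 369 ChIP and 26 input reads, 12.8-fold (8.6 to 19.9). The first SUSD3 peak thus had the least close counterpart. For IER2 it was ESCO1 (0.484), for FAM49A MCCC1 (0.235), for RGS3 NEDD4L (0.172) and for DENND3 NPM3 (0.101).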

How the data were processed

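Per the file headers, the table lists ChIP-seq peaks of TCF4 related to signature genes, from 1 ChIP and 1 input library. Each peak has raw read counts deposited for the ChIP and for a column headed IC, which was taken here as the input because it is the only other library. The authors' deposited log2 ratio adds 1 to both counts, and their scaled log2 ratio is lower by 0.148. The authors' deposited signal equals reads per kb of width divided by 93.5 for the ChIP and 84.4 for the input; what these constants are based on is not stated. The authors' deposited −log10 p-values are against a read distribution, infinite for 14 of the 24 peaks and not used here, and against local surroundings. The submitters' processing notes name BWA, GATK and hg19 but no roles. Which peak caller was run, and whether the spike-in chromatin was used, is not given in the sources. Coordinates are printed unchanged, without knowing if the first base is 0 or 1.

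Folds are ChIP over input reads scaled by the constants of the signal, with no pseudocount and with exact binomial (Clopper-Pearson) intervals turned into ratios. The 1 listed peak with no input read, which is none of the 24, was set against a floor of 3 reads. Reads are not independent molecules. Start sites were recovered from the authors' distances, which placed them at the same base for all peaks of a transcript. A fold of 5 was the threshold for counts. Every listed peak of the 6 genes is named. The members, lists and likeness rule were chosen with earlier results of these data known. The current symbol of FAM49A was matched through its synonym. The work was done with scipy 1.17.1, numpy 2.4.6 and pandas 2.3.3 in Python 3.11.15.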

Additional observations from a re-analysis of the deposited data

How the results depend on the processing

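Without scaling, or with 1 read added to both counts, each of the 24 folds stayed inside its own interval (48 values). Leaving out the scaling changes every fold by the same factor, and 1 added read changes these counts little. Both shifts are smaller than the intervals, so this outcome was fixed in advance and is no check on the folds. Of the 24 peaks, 12 reached 5-fold, 4 reached 8-fold and 22 reached 4-fold, against 50.3%, 12.2% and 89.4% of all listed peaks. The count at 5-fold was 5 by the lower end of the interval, against 8.16% of all listed peaks. It was 11 among peaks at or above the median of ChIP reads and 6 among those at or above the median local −log10 p. After merging peaks under 1 kb apart it was 12. It was 16 without scaling and 10 with 1 read added to both counts, settings chosen for this count after seeing the data. Without scaling every listed fold is higher. The share of all listed peaks was computed only for the fold limits and the lower end, so other counts have no reading. A promoter window of 1 kb kept the count at 2, and 5 kb gave 4, which adds the SUSD3 and DENND3 peaks at 3.57 and 4.2 kb. Ranks of the peak with the most reads depended on the measure. Ranked by ChIP reads, by fold, by ChIP reads per kb and by local −log10 p, IER2 stood at 6, 76, 74 and 457, SUSD3 at 8, 12, 44 and 340, RGS3 at 23, 113, 23 and 457, LMO2 at 32, 78, 18 and 28, FAM49A at 87, 383, 34 and 149, and DENND3 at 333, 387, 316 and 512. The cause was not tested. With peaks at or above the median of ChIP reads, the summed LMO2 fold was 8.12, since the promoter peak alone is left, and DENND3 had none left. Without the peak with the most reads the summed folds were 4.1 for LMO2, 4.31 for SUSD3 and 4.91 for IER2. A fall was fixed in advance in these genes, where that peak also has the highest fold. Leaving out that peak and setting a limit of 100 kb, which gave 4.39 for FAM49A, were chosen after seeing the data. No paired analysis was possible because each group has 1 library. Input reads of 10 to 48 per peak limit the precision of every fold.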
